A study of Mus musculus with 6 samples.

Results

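The genes followed here encode cohesin and its regulators, CTCF, the looping factors YY1 and LDB1, the Mediator complex and the coactivators EP300 and CREBBP. They were chosen by function, with earlier results of these data known, as 49 gene symbols out of 52636 gene identifiers in the count tables. Every one of the 49 matched 1 identifier and had enough reads to be tested, among 15816 genes tested in all.

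RNA was sequenced from E14, an established line of mouse embryonic stem cells, after 4 days in 5 µM retinoic acid (the labels write the unit as µm) without LIF and the MEK and GSK3 inhibitors of the stem cell medium. One group was wild-type E14 (3 libraries) and the other was E14 with an enhancer cluster knocked out (3 libraries), and both had the same treatment. The series title ties that cluster to activation of the HoxB genes through long-range chromatin contacts, which is why the proteins known for building such contacts were followed. The design text calls the 3 libraries of a group biological replicates, while neither the number of knockout clones nor the place of the deletion is given in the sources used here. If the libraries came from 1 clone, differences of that clone cannot be told apart from those of the deletion. The libraries held 7780368 to 9472916 gene counts.

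The design text names the cells neural progenitors, and their markers gave a mixed picture. Levels are given as CPM, read counts scaled to library size. Nes, encoding nestin, was at 231 ± 6.84 CPM in wild type (mean ± SD, n = 3) and at 33.6 ± 3.49 CPM. The early neural factors Sox1 and Pax6 stayed under 5 CPM on average in both groups, and Fabp7 had 0 counts in all 6 libraries. Pax6 and Prom1 rose in the knockout, with log2 fold changes of 1.16 and 0.72, and Sox1 did not pass the test. Sox2, Cdh2 and Zic1 fell, by 1.49, 1.52 and 0.42. Of 6 pluripotency markers, Nanog, Zfp42, Esrrb and Tdgf1 fell in the knockout, with log2 fold changes from -3.03 to -1.18, while Pou5f1 and Klf4 rose by 0.12 and 0.28. Nanog went from 164 ± 3.89 to 32.8 ± 1.51 CPM and Pou5f1 from 184 ± 5.36 to 201 ± 14.9 CPM.

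Cohesin is a ring of SMC1A, SMC3 and RAD21 with a STAG subunit. It is loaded by NIPBL and MAU2, extrudes loops of DNA, halts at sites bound by CTCF, and is taken off by WAPL together with PDS5 proteins. Mediator carries signals from factors bound at enhancers to RNA polymerase II at promoters. It has a head, a middle and a tail held together by MED14, and a kinase module that binds reversibly. EP300 and CREBBP are acetyltransferases that mark active enhancers.

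Of the 49 genes, 11 rose in the knockout, 22 fell and 16 did not pass the test (edgeR's quasi-likelihood test, Benjamini-Hochberg adjustment over all tested genes, threshold 0.05). The count of changed members, 33, is to be read against 68.6% of all tested genes that changed, 34.5% higher and 34% lower. As a share of the members, 22.4% rose and 44.9% fell. Sizes were small for this comparison, with a median absolute log2 fold change of 0.29 over the members and 0.49 over all tested genes. The sets were not matched for level. Wild-type means ran from 8.45 to 322 CPM over the members and from 0 to 8551 CPM over all tested genes. A change of at least 0.5 on the log2 scale that passed the test was seen in 12 of 49 members and in 45.7% of all tested genes. A change of at least 1 was reached by 1 member, Esco2, and by 21% of all tested genes. In 34 members (11 above, 23 below) the 2 groups of libraries shared no range, beside 70.9% of all tested genes.

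**Figure D1:**
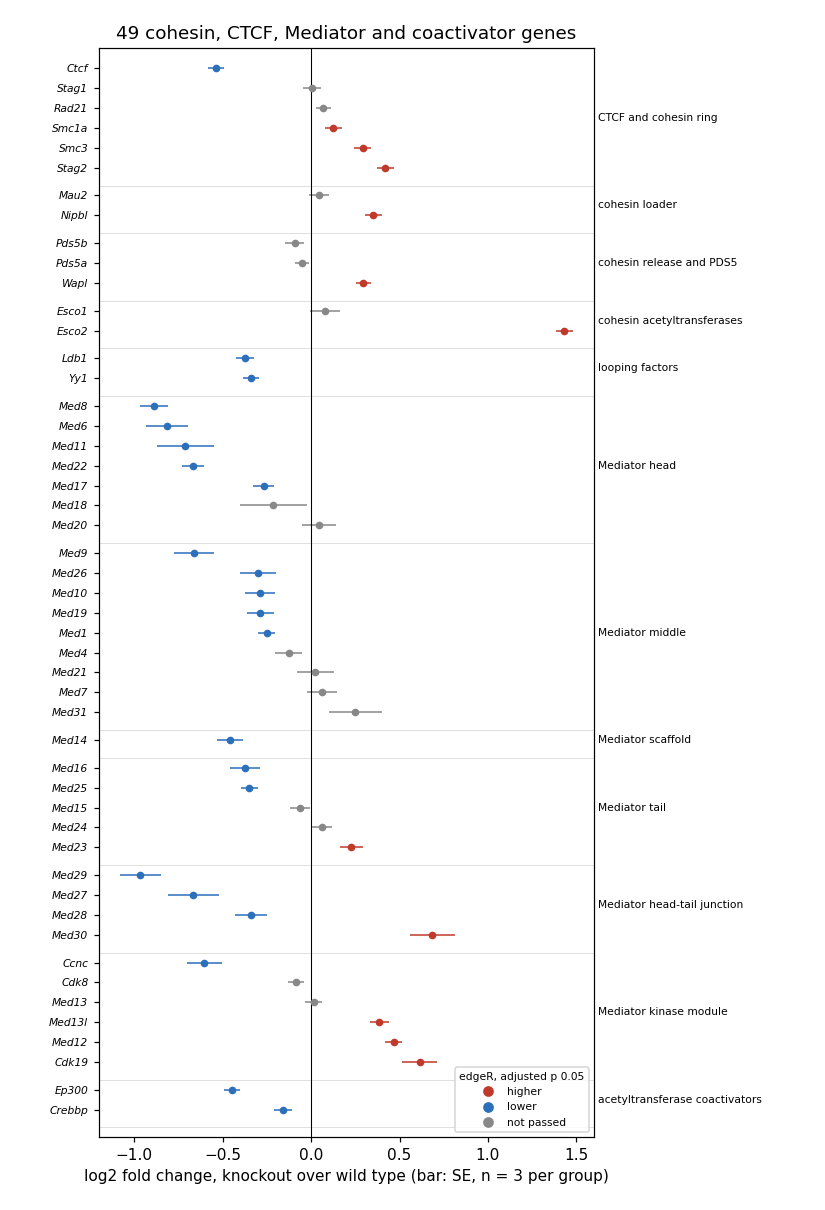
Log2 fold change of each of the 49 genes, knockout over wild type (x axis), with its SE (bar, n = 3 per group), grouped by role and coloured by the edgeR call. Esco2 stands apart at 1.43, most core Mediator genes lie left of 0, and cohesin genes lie mostly at or right of 0.

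The direction differed by complex. Of 13 cohesin and CTCF genes, 6 rose (46.2%) and 1, Ctcf, fell (7.69%), with a median log2 fold change of 0.08. Of the 26 Mediator genes outside the kinase module, 2 rose (7.69%) and 16 fell (61.5%), with a median of -0.29. Of the 6 kinase module genes, 3 rose (50%) and 1 fell (16.7%), with a median of 0.20. Of all tested genes, 34.5% rose and 34% fell, with a median of 0.01. Both looping factors and both acetyltransferases fell.

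Other measures moved with the same groups, and their part in these results was not tested. Bulk libraries do not separate a smaller number of cells of a type from less RNA per cell. Of 8 extraembryonic endoderm markers, 6 were higher and 1 lower in the knockout. Their summed level was 1616 to 1650 CPM in wild type and 4725 to 4753 CPM in the knockout. Lama1 weighed most in that sum, with means of 933 CPM in wild type and 2811 CPM in the knockout. Of 8 neural progenitor markers, 7 were tested, 2 were higher and 4 lower, with sums of 469.8 to 490.7 CPM in wild type and 148 to 161 CPM in the knockout. Nes weighed most in the neural sum of wild type, with means of 231 CPM in wild type and 33.6 CPM in the knockout. Pax6 and Prom1 were the 2 higher neural genes. Endoderm markers were thus summed higher and neural markers lower in every knockout library, though not each marker moved with its sum. The 6 fibroblast and mesenchyme markers (2 higher, 4 lower) summed to 1536 to 1570 CPM in wild type and 539 to 544 CPM in the knockout. Vim weighed most in that sum, with means of 994 CPM in wild type and 172 CPM in the knockout. The 2 higher genes were Pdgfra and Col1a2, with log2 fold changes of 1.22 and 1.24. The 6 pluripotency markers (2 higher, 4 lower) summed to 627 to 655 and 379 to 398 CPM. These sums, too, were lower in every knockout library. Of 6 neuron markers, 4 were tested, with 1 higher and 2 lower, and their sums were 97.4 to 106 and 25.2 to 31.4 CPM. Mitochondrial genes took 1.67 to 1.73% of counts in wild type and 2.58 to 2.89% in the knockout. They did not move alike, with log2 fold changes of 1.30 for mt-Co1, 0.10 for mt-Nd1 and -0.14 for mt-Cytb. Genes over ribosomal RNA repeats took 1.04% in knockout replicate 1 and 0.0726 to 0.118% in the other libraries. Without knockout replicate 1, 11 members rose and 21 fell.

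CTCF, the zinc finger protein that stops loop extrusion, fell at the transcript level. Ctcf (ENSMUSG00000005698, chromosome 8, 105636568 to 105682922, GRCm38) had wild-type levels of 146, 142 and 145 CPM against knockout levels of 97.0, 101 and 100.0 CPM. The groups were well apart, and each group varied by only a few CPM. Its log2 fold change was -0.54 (SE 0.046, adjusted p = 8.42e-11 by edgeR), or -31.2%. Genes on the other strand, Agrp and Gm5914, cover 7.61% of its exon length.

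Of the 5 ring genes, 3 rose, by small amounts. Stag2, one of the alternative STAG subunits, had wild-type levels of 129.6, 128 and 128 CPM against knockout levels of 166, 167 and 183 CPM. All knockout libraries were higher, replicate 3 most of all, and the log2 fold change was 0.42 (SE 0.048, adjusted p = 1.72e-08 by edgeR), or 0.27 after removal of a trend on GC content over all tested genes. Its partner Stag1 had wild-type levels of 104, 99.7 and 106 CPM against knockout levels of 98.7, 100.0 and 111 CPM. Those values overlapped, with a log2 fold change of 0.0030 (SE 0.051). Smc3, an ATPase arm of the ring, rose by 0.29 (SE 0.048), from 239 ± 9.77 to 292.2 ± 20.8 CPM, or by 0.18 without the GC trend. Smc1a, the other arm, rose by 0.12 (SE 0.049), or by 0.06 without the GC trend, a call that was lost with DESeq2 (adjusted p = 0.0638) and without wild-type replicate 1, wild-type replicate 3 or knockout replicate 3 (adjusted p by edgeR 0.169, 0.0619 and 0.154). Rad21, the kleisin that closes the ring, did not pass at 0.07 (SE 0.041), and passed with upper-quartile scaling (adjusted p = 0.0276) and without knockout replicate 1 (adjusted p = 0.0441 by edgeR). Per kb of annotated exon, Rad21 had the highest wild-type level of the 49 genes (76.2 CPM per kb) and Smc3 the next (43.1), against 15.5 for Stag2 and 8.74 for Stag1.

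The loader and the release factor both rose. Nipbl, the loading subunit that also drives extrusion, had wild-type levels of 138, 142 and 156 CPM against knockout levels of 186, 179.6 and 189.5 CPM. No knockout library came near the wild-type range, and the log2 fold change was 0.35 (SE 0.048, adjusted p = 5.27e-07 by edgeR), or 0.23 after removal of a trend on exon length. Mau2, its partner, did not pass, at 0.05 (SE 0.058). Wapl, which opens the ring for release, had wild-type levels of 199, 197 and 192 CPM against knockout levels of 233, 242 and 246 CPM. That was a clear separation with a log2 fold change of 0.29 (SE 0.042, adjusted p = 1.03e-06 by edgeR), or 0.18 without the GC trend. Pds5a, which works with WAPL and with the acetyltransferases, had wild-type levels of 266, 275 and 276 CPM against knockout levels of 264, 257 and 267 CPM. Pds5b had wild-type levels of 109.7, 105 and 107 CPM against knockout levels of 90.6, 108 and 103 CPM. Values of both PDS5 genes overlapped between groups, and their log2 fold changes were -0.05 (SE 0.041) and -0.09 (SE 0.054). Without knockout replicate 2, Pds5b passed the test (adjusted p = 0.0450 by edgeR).

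Esco2, the acetyltransferase that locks cohesin onto sister chromatids in S phase, changed more than any other member. It had wild-type levels of 58.5, 57.1 and 58.3 CPM against knockout levels of 154, 160.3 and 154 CPM. Libraries within a group were nearly level, and the change was 2.70-fold (log2 fold change 1.43, SE 0.048, adjusted p = 3.53e-19 by edgeR), larger than in 89.5% of all tested genes by absolute size. Esco1, which acetylates cohesin through the whole cell cycle, had wild-type levels of 37.8, 40.9 and 41.2 CPM against knockout levels of 38.4, 42.9 and 45.3 CPM. Its groups overlapped, with a log2 fold change of 0.08 (SE 0.084). Of 14 S phase and mitosis genes, 4 were higher (28.6%) and 8 lower (57.1%). Pcna, the replication clamp, was at -0.94 (SE 0.047) and Mcm5, of the replicative helicase, at -1.04 (SE 0.044). Mki67, a marker of cycling cells, was at 0.58 (SE 0.039). The 8 lower genes were Pcna, Mcm2 to Mcm7 and Cdk1, and the 4 higher genes were Mki67, Top2a, Ccna2 and Bub1. The sum of all 14 genes was 2976 to 3073 CPM in wild type and 2910 to 3015 CPM in the knockout. Those ranges overlap, and the sum hides these opposite changes.

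**Figure D2:**
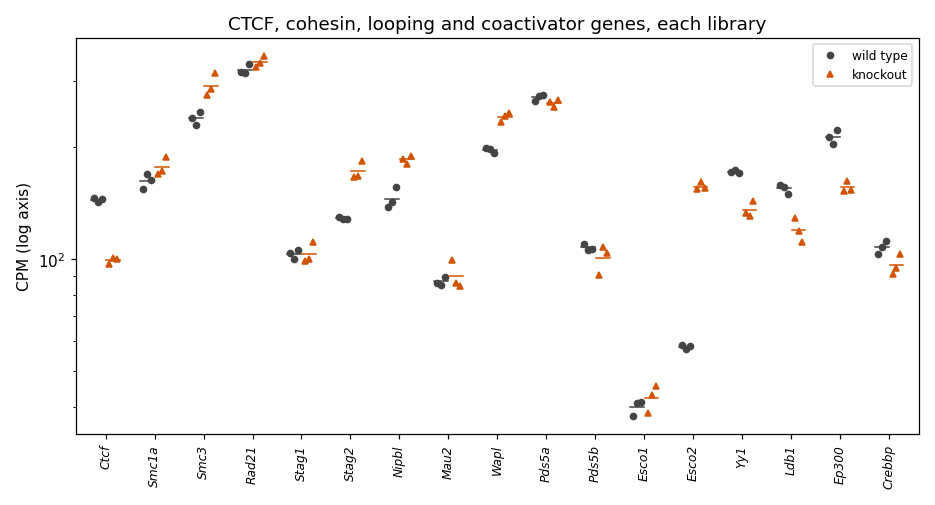
CPM (log axis) of the 17 genes outside Mediator in each of the 6 libraries, 3 wild type (circles) and 3 knockout (triangles), with group means as short lines. Esco2 lies at 57.1 to 58.5 CPM in wild type and 154 to 160.3 CPM in the knockout, Ctcf, Yy1, Ldb1 and Ep300 are lower in every knockout library, and Stag1, Mau2, Pds5b and Esco1 overlap.

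Both looping factors fell. Yy1, a zinc finger protein that binds enhancers and promoters and can bridge them, had wild-type levels of 171, 174 and 170.3 CPM against knockout levels of 133, 130.1 and 143 CPM (log2 fold change -0.34, SE 0.047, adjusted p = 4.37e-07 by edgeR). Ldb1, an adaptor that joins DNA-bound complexes by self-association, had wild-type levels of 158, 156 and 149.7 CPM against knockout levels of 129, 118 and 111 CPM (log2 fold change -0.38, SE 0.051, adjusted p = 4.105e-07 by edgeR). In both genes the lowest wild-type library lay above the highest knockout library. Exons of Pprc1 on the other strand cover 3.84% of Ldb1.

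Since YY1 is itself a member, its letters were looked for in the promoters of the others. RefSeq windows (GRCm38.p6, 250 bases before to 50 after the start) matched 39 of the 49 members. The letters AANATGGC, or GCCATNTT on the other strand, occurred in 9 of those 39 windows (23.1%) and in 6.23% of 27025 windows, 1 per gene. The 27025 windows were not limited to genes tested here, while every member was tested, so the shares cover unlike sets of genes. These letters hold an ATG and can include a start codon, and a match describes the letters and does not show binding. Of the 9 genes, 4 fell (Med27, Med29, Med25 and Ctcf), 1 rose (Smc3) and 4 did not pass (Pds5b, Med21, Stag1 and Med31), so matches were found among genes of each kind. Windows were at hand for 21 of the 22 members that fell and for only 5 of the 11 that rose. The stretches of 30 bases around each match are shown 5′ to 3′ on the strand of the gene, to let the letters be compared, with the match in capitals.
Ctcf, chr8:105636537-105636566, plus strand: accgcgccgccGCCATTTTgtgtccgagcc
Smc3, chr19:53600385-53600414, plus strand: ccgcggccgccGCCATTTTgtttggccaca
Pds5b, chr5:150673779-150673808, plus strand: ctgctcttggcGCCATTTTgaagcggagag
Stag1, chr9:100643235-100643264, plus strand: gagaagctctaAAAATGGCgggcggcaacc
Med21, chr6:146642597-146642626, plus strand: cgtgcgtggtgAACATGGCggatagactca
Med25, chr7:44892475-44892504, minus strand: tgccccgcacaAACATGGCcgtatcagcat
Med27, chr2:29346830-29346859, plus strand: tgtgacagctgcAACATGGCggacgtgctg
Med29, chr7:28392648-28392677, minus strand: tctagcggaggAAAATGGCtgcgccccagc
Med31, chr11:72215752-72215781, minus strand: ggttctcctggAAGATGGCtggctggcaac

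Ctcf, Smc3 and Pds5b carried the same 8 letters on the opposite strand, while Smc3 rose and Ctcf fell. The first base of the match lay between -202 and 33 from the RefSeq start, which need not be the start given by GENCODE. In the same windows CCGGAAG (the ETS core) was found in 7 of 39 members and 9.12% of all windows, and the NRF1 motif in 7 of 39 and 4.78%. CCAAT was found in 16 of 39 and 37.9%, and GGGGCGGGG (a GC box) in 4 of 39 and 11.6%. Every search covered both strands, and all windows again included genes that were not tested here.

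Mediator genes fell more often than they rose. Over all 32, 17 fell (53.1%) and 5 rose (15.6%), beside 34% and 34.5% of all tested genes. In the head, which contacts RNA polymerase II, 5 of 7 fell (71.4%, beside 34% of all tested genes) and 0 rose by edgeR. At an unadjusted p under 0.05 the counts were also 5 and 0, as they were with DESeq2 and with limma-voom. Its summed level went from 311 ± 12.6 to 221 ± 2.84 CPM.

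Med8, a head subunit, had wild-type levels of 52.0, 51.2 and 52.2 CPM against knockout levels of 26.5, 27.8 and 29.4 CPM (log2 fold change -0.89, SE 0.082, adjusted p = 3.94e-10 by edgeR). Med22, also of the head, had wild-type levels of 98.6, 93.4 and 85.5 CPM against knockout levels of 57.7, 59.5 and 57.6 CPM (log2 fold change -0.67, SE 0.061, adjusted p = 3.72e-10 by edgeR). Med6 had wild-type levels of 34.2, 29.7 and 28.7 CPM against knockout levels of 14.8, 20.1 and 17.6 CPM (log2 fold change -0.82, SE 0.12, adjusted p = 1.14e-06 by edgeR). In these 3 genes no knockout library reached the wild-type range. Med11 fell by 0.71 (SE 0.16) and Med17, the central head subunit, by 0.27 (SE 0.061). Med18 and Med20, which form the movable jaw of the head, did not pass, at -0.21 (SE 0.19) and 0.04 (SE 0.096). Med18 had the lowest level of the 49 genes, 8.45 ± 0.941 CPM in wild type, and its SE is the widest.

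In the middle module, 5 of 9 fell (55.6%) and 0 rose by edgeR, beside 68.6% of all tested genes that changed and 34% that fell. The module had the same counts at an unadjusted p under 0.05, with DESeq2 and with limma-voom. Med1, the large subunit that binds nuclear receptors such as those for retinoic acid, had wild-type levels of 132, 124 and 134 CPM against knockout levels of 110.02, 112 and 106 CPM. The groups did not overlap, and Med1 fell by 0.25 (SE 0.048, adjusted p = 4.74e-05 by edgeR). Med9 fell by 0.66 (SE 0.11) and Med19 by 0.29 (SE 0.078). Exons of Zdhhc5 and Tmx2 on the other strand cover 12.9% of Med19. Zdhhc5 fell by 1.20 and Tmx2 rose by 0.37, and whether the Med19 counts hold their reads was not tested. Med26, which joins Mediator to elongation factors, fell by 0.30 (SE 0.10), a call lost without knockout replicate 3 (adjusted p = 0.0529 by edgeR). Med10 fell by 0.29 (SE 0.084). Exons of Gm26819 on the other strand cover 92.8% of its exon length, Gm26819 had 267 to 451 counts per library, and since the strand option is not known, whether the counts of Med10 hold reads of Gm26819 was not tested. Med4, Med7, Med21 and Med31 did not pass, with log2 fold changes from -0.13 to 0.25.

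Med14, the scaffold that links the modules, had wild-type levels of 58.3, 60.9 and 66.4 CPM against knockout levels of 46.1, 43.3 and 45.7 CPM. The knockout values were all lower, by 0.46 on the log2 scale (SE 0.072, adjusted p = 4.08e-06 by edgeR). In the tail, where many activators dock, 2 of 5 genes fell and 1 rose. Med25 had wild-type levels of 145, 143 and 145 CPM against knockout levels of 121, 106 and 113 CPM, without overlap (log2 fold change -0.35, SE 0.049, adjusted p = 7.01e-07 by edgeR). Med16 fell by 0.38 (SE 0.085). Med23, a docking site for ERK-activated factors, rose by 0.23 (SE 0.066), which was lost without knockout replicate 1 (adjusted p = 0.0562 by edgeR). Med15 and Med24 were at -0.06 and 0.06 and did not pass.

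The 4 subunits that sit between head and tail split in direction. Med29 had wild-type levels of 26.3, 27.9 and 31.7 CPM against knockout levels of 14.2, 15.0 and 14.6 CPM, the largest fall of the 49 genes (log2 fold change -0.97, SE 0.12, adjusted p = 4.60e-08 by edgeR). Med27 fell by 0.67 (SE 0.14) and Med28 by 0.34 (SE 0.089). Med30, in contrast, rose by 0.69 (SE 0.13, adjusted p = 3.76e-05 by edgeR), from 12.7, 15.2 and 13.5 CPM to 19.8, 21.7 and 25.1 CPM. Med30 and Med23 were the only core Mediator genes that rose.

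**Figure D3:**
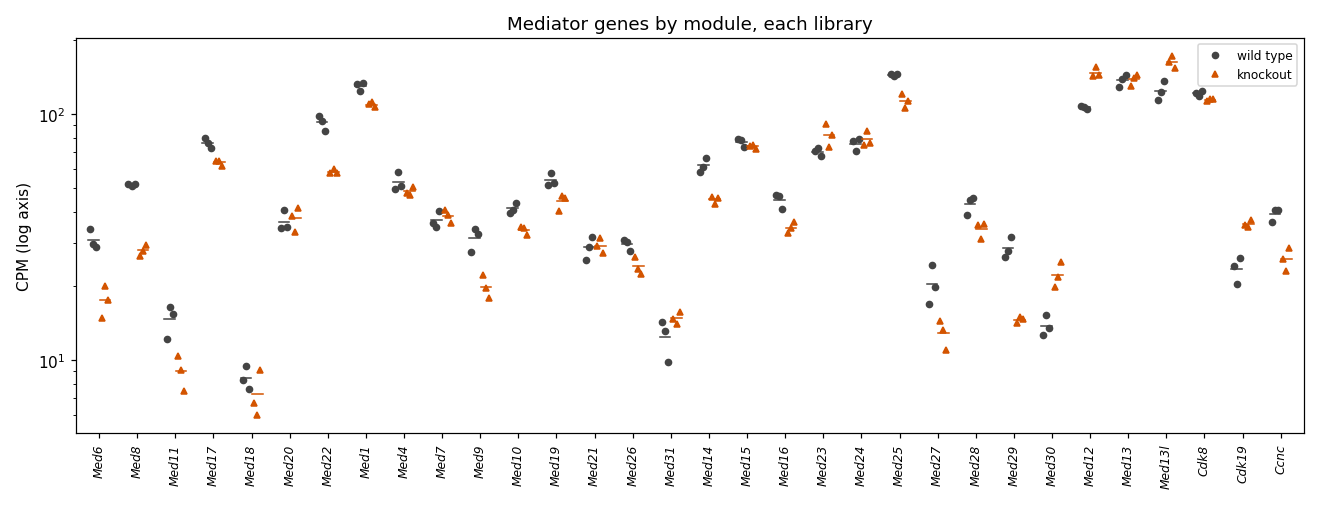
CPM (log axis) of the 32 Mediator genes in each library, 3 wild type (circles) and 3 knockout (triangles), ordered head, middle, Med14, tail, the subunits between head and tail, and kinase module, with group means as short lines. Med8, Med22 and Med29 are lower in every knockout library, and Med30, Med12, Med13l and Cdk19 are higher.

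In the kinase module, which binds core Mediator and keeps it from polymerase, members moved both ways. Med12, which activates the kinase, had wild-type levels of 108, 107 and 105 CPM against knockout levels of 143, 156 and 144 CPM. No values overlapped, and the log2 fold change was 0.47 (SE 0.048, adjusted p = 3.13e-09 by edgeR). Med13l, one of the alternative links to core Mediator, had wild-type levels of 114, 123 and 136 CPM against knockout levels of 162, 172 and 153 CPM (log2 fold change 0.39, SE 0.056, adjusted p = 1.05e-06 by edgeR), and without the length trend its fold change was 0.19. Its relative Med13 had wild-type levels of 129, 138 and 144 CPM against knockout levels of 131, 141 and 144 CPM, nearly the same range (log2 fold change 0.01, SE 0.051). The kinase gene Cdk8 had wild-type levels of 122, 118 and 124 CPM against knockout levels of 113, 115 and 115 CPM. Although these did not overlap, Cdk8 did not pass, at -0.09 (SE 0.046, adjusted p = 0.0973 by edgeR). Cdk19, the alternative kinase, had wild-type levels of 24.1, 20.4 and 25.9 CPM against knockout levels of 35.6, 34.8 and 37.0 CPM, a rise of 0.61 (SE 0.10). Ccnc, encoding the cyclin that both kinases need, fell by 0.60 (SE 0.097), from 39.3 ± 2.57 to 25.8 ± 2.75 CPM. Med12 shares 9.72% of its exon length with Gm21986 on its own strand. The summed level of the module was 553 ± 21.4 CPM in wild type and 625 ± 15.99 CPM in the knockout.

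Both acetyltransferase genes fell, Ep300 more clearly. Ep300 had wild-type levels of 212, 203 and 223 CPM against knockout levels of 152, 162 and 153 CPM (log2 fold change -0.45, SE 0.046, adjusted p = 2.76e-09 by edgeR). Crebbp had wild-type levels of 103, 108 and 112 CPM against knockout levels of 91.2, 94.3 and 103 CPM, where the highest knockout library lay just under the lowest wild-type library (102.832 and 102.883 CPM). Its fall of 0.16 (SE 0.052, adjusted p = 0.00807 by edgeR) was lost without knockout replicate 1 (adjusted p = 0.0753 by edgeR) and stood at -0.34 without the length trend.

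Several of these proteins come as alternative versions that take the same place in a complex, so the balance within 6 pairs was compared in each library from counts per kb of exon. The smallest p that an exact permutation test can give for 3 against 3 libraries is 0.1, or 0.12 after Benjamini-Hochberg adjustment over the 6 pairs, so no pair could pass 0.05. That smallest value was reached by 5 pairs, in which the groups did not overlap. Among single tested genes, 70.9% had groups that did not overlap, and the share for ratios of other gene pairs was not computed. Esco1 made up 45.7, 48.3 and 48.0% of the ESCO pair in wild-type libraries against 24.5, 25.9 and 27.7% in knockout libraries. The log2 ratio of Esco1 to Esco2 differed by -1.36 on average (-0.15 ± 0.081 for wild type, -1.51 ± 0.12 for knockout).

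Cdk8 made up 75.1, 77.5 and 74.1% of the kinase pair in wild-type libraries against 65.4, 66.3 and 65.0% in knockout libraries. Stag1 went from 36.0 ± 0.677% of the STAG pair to 29.6 ± 0.141%. Med13 went from 61.1 ± 0.798% to 54.8 ± 2.14% of the pair with Med13l. Ep300 went from 65.2 ± 0.992% to 60.6 ± 1.77% of the pair with Crebbp. In the ESCO, kinase, STAG and MED13 pairs the second gene rose and the first did not pass, while Ep300 and Crebbp both fell. Pds5a was the exception in balance, with 56.4 ± 1.03% in wild type and 57.1 ± 2.46% in the knockout (two-sided exact permutation p = 0.9). Shares per kb rest on the annotated union of exons, so the size of a share depends on that length while the difference between groups does not depend on it on the log2 ratio scale.

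**Figure D4:**
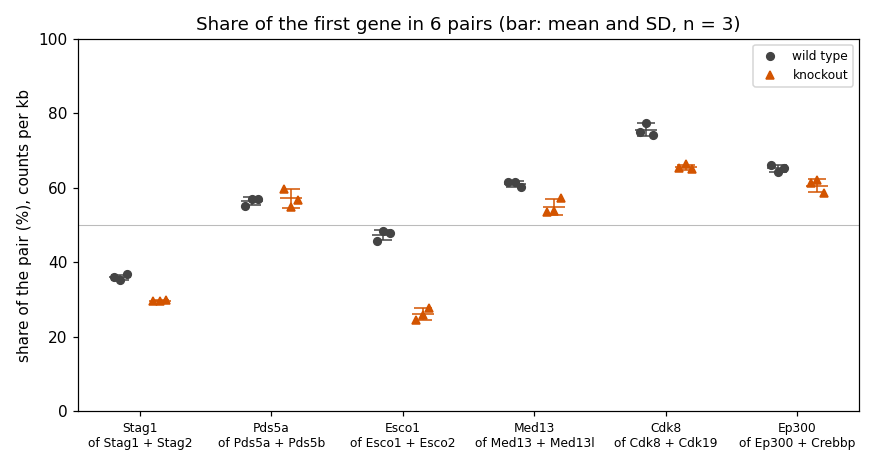
Share of the first named gene in each of 6 pairs (y axis, percent of the pair's counts per kb) in 3 wild-type (circles) and 3 knockout (triangles) libraries, with mean and SD. The groups are apart in all pairs but Pds5a and Pds5b, most of all for Esco1, at 47.3 ± 1.40% and 26.0 ± 1.58%.

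Fold change varied with gene length among the members. Across the 49 genes the correlation of the log2 fold change with log10 exon length was 0.327 (Pearson) and with exon length 0.343 (Spearman). With the GC content of the longest transcript it was -0.410 (Pearson). Across 15795 tested genes with both values these were 0.056, 0.077 and -0.084, all of them descriptions over genes that share the same 6 libraries. Of 8 Mediator genes with under 2.5 kb of exon, 5 fell and 1 rose, while of 11 with over 6 kb, 3 fell and 3 rose. Over all tested genes, 32.2% of those under 2.5 kb fell and 27.7% rose, and 31.6% of those over 6 kb fell and 43.7% rose. After removal of a trend on length or on GC content over all tested genes, each of the 33 changed members kept the sign of its fold change. The size moved by over 1.5 times in 7 of them, with the values given at each gene. The rises of Smc1a, Smc3, Stag2, Nipbl, Wapl and Med13l became smaller, and the fall of Crebbp became larger. Smc1a also moved without the length trend, to 0.08.

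**Figure D5:**
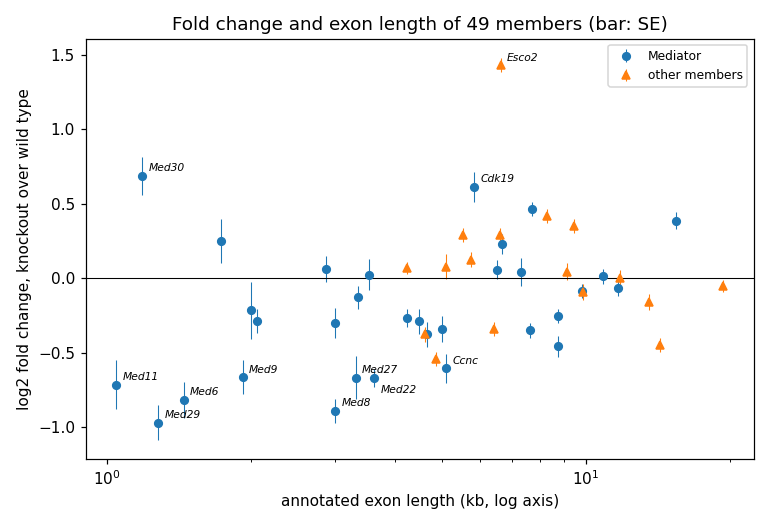
Log2 fold change (y axis, bar SE) against annotated exon length in kb (x axis, log scale) for the 32 Mediator genes (circles) and the 17 other genes (triangles). Short Mediator genes such as Med29, Med6 and Med11 lie low, while Med30 lies at 0.69 and Med31, which did not pass, at 0.25. Esco2 lies alone at 1.43.

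By position, 4 members are on the X chromosome, of which Smc1a, Stag2 and Med12 rose and Med14 fell, against 37.8% of tested genes of that chromosome that rose and 25.7% that fell. Another 7 lie on chromosome 11, which carries HoxB at 96194316 to 96368256. Of these 7, 3 fell and 0 rose by edgeR, beside 40.3% of the 1265 tested genes of that chromosome that fell and 33.2% that rose. The 7 members had the same counts at an unadjusted p under 0.05, with DESeq2 and with limma-voom. The nearest to HoxB are Med1, 1.78 Mb away, and Med24, 2.34 Mb away, which was at 0.06 and did not pass. Annotated exons of 31 members are free of genes on the other strand, and 7 members have 10% or more covered. Those 7 are Med10, Med31 (26.3%), Med20 (21.4%), Med7 (21.2%), Med21 (15.5%), Med19 (12.9%) and Med26 (12.7%).

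Related genes from lists outside the 49 were read in the same fit. Those lists, too, were drawn up with earlier results of these data known, and their shares are descriptions. Of 10 tested genes in the list of other cohesin genes, 8 rose and 2 fell. Rec8, a kleisin of meiotic cohesin, rose by 1.03 (SE 0.046), from 75.6 ± 0.615 to 154 ± 2.65 CPM. Pttg1, encoding securin, rose by 1.44 (SE 0.13) and Sgo2a, a shugoshin that protects cohesin, by 0.58 (SE 0.065). Cdca5, encoding sororin, the cohesin-stabilising factor that ESCO2 activity recruits, was at -0.56 (SE 0.092), opposite to Esco2. In the list of condensin and other SMC complexes, 9 of 15 rose and 2 fell, among them Smc5, which rose by 0.83 (SE 0.045), Ncapg by 0.60 (SE 0.049) and Ncapd2 by 0.47 (SE 0.040). The share higher was 80% in the first list and 60% in the second, beside 34.5% of all tested genes.

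Genes of the transcription machinery that Mediator serves went the other way. Of 13 RNA polymerase II subunit genes, 10 fell and 0 rose by edgeR, with a median log2 fold change of -0.40. The share that fell was 76.9%, beside 34% of all tested genes. At an unadjusted p under 0.05, 11 fell and 0 rose, while DESeq2 had 8 lower and limma-voom 10 lower, with 0 higher in each. Polr2a, the catalytic subunit, fell by 1.14 (SE 0.046), from 447 ± 16.4 to 203 ± 13.6 CPM. Polr2d fell by 1.25 (SE 0.088) and Polr2m by 0.56 (SE 0.044). Of 22 pause release and BET genes tested, 5 rose (22.7%) and 12 fell (54.5%), with Brd2, a reader of acetylated histones, at -0.60 (SE 0.039), Hexim1, an inhibitor of the elongation kinase, at -1.09 (SE 0.074) and Aff1 at -0.48 (SE 0.048).

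Other coactivators were mixed, with 4 higher (26.7%) and 6 lower (40%) of 15. Cited2, a partner of EP300 and CREBBP, fell by 1.48 (SE 0.049), Kat2a, an acetyltransferase of SAGA, fell by 0.75 (SE 0.051), and Ncoa3, a nuclear receptor coactivator, rose by 0.68 (SE 0.035). Of 9 tested genes among other looping factors and LDB1 partners, 3 rose (33.3%) and 4 fell (44.4%). Zfp143, a promoter-binding factor linked to loops, rose by 1.17 (SE 0.099), from 21.2 ± 2.77 to 47.6 ± 2.31 CPM, while Patz1 fell by 0.80 (SE 0.069) and Ssbp3, which stabilises LDB1, by 0.46 (SE 0.0405).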

How the data were processed

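The authors deposited 1 table of raw counts per library, whole numbers listed by Ensembl gene. HISAT2 2.1.0, HTSeq 0.9.1, DESeq2 1.18.1 and build mm10 are named in the submitters' processing notes. Which annotation release and strand option were used is not given in the sources used here. Genes took 36.0 to 38.4% of the tallied reads. Rows that name no gene, of which reads in no feature took 42.3 to 43.5%, were left out of library sizes and tests. Symbols, positions and exon lengths came from GENCODE M21 (GRCm38), and 52489 of 52636 identifiers matched.

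Counts of all 6 libraries were fitted with edgeR 4.0.16 (R 4.3.3): filterByExpr with a minimum count of 10, TMM scaling, quasi-likelihood F tests, no covariate, Benjamini-Hochberg over 15816 genes. SE is the log2 fold change over the square root of F. CPM uses TMM library sizes. Members had 48 to 3000 counts per library, so the lowest are the least precise. Alternatives were DESeq2 1.42.0, limma-voom 3.58.1, other scalings and filters, the replicate block, length and GC trends, and each library left out.

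The members and lists were chosen with earlier results of these data known. Values per library are given for the 16 members with the smallest adjusted p, the 6 pairs, Ctcf, Nipbl, Med1 and Yy1, and related genes are the 3 with the smallest adjusted p per list. Cdca5, Med30 and Crebbp's 2 closest libraries were singled out after their values were seen.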

Additional observations from a re-analysis of the deposited data

How the results depend on the processing

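Of 12 main results (6 counts of genes and 6 pair ratios), the counts stayed within 1.5 times the main count and 5 of the pair ratios kept their sign in every alternative run, and the ratio of Pds5a to Pds5b changed sign. Over 13 alternatives the members that rose numbered 10 to 12 and those that fell 21 to 23. Of the 33 changed members, 29 kept their call in all 13, and the exceptions were Smc1a, Med23, Med26 and Crebbp, each with its values given above. Among other cohesin genes 6 to 8 rose and 1 to 2 fell. Removing a length trend moved the fold change of 19 members by more than the replicate SD, and removing a GC trend that of 20. No paired design is stated. Same-numbered libraries had correlations of their deviations from the group means of 0.0227, 0.0099 and -0.0015. The value for replicate 1 was the highest between any wild-type and knockout library. Wild-type replicate 2 correlated best with knockout replicate 3, and wild-type replicate 3 with knockout replicate 2. With the replicate block, 11 members rose, 22 fell and 10862 genes changed. Without each library in turn, the difference in log2 ratio ranged from -1.42 to -1.30 for Esco1 to Esco2, from -0.76 to -0.62 for Cdk8 to Cdk19 and from -0.03 to 0.11 for Pds5a to Pds5b. Low counts limit Med11, Med18, Med27 and Med31, the 4 members with under 100 counts in some library, and the strand option, which matters for overlapping genes, is not known.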
